A study of Mus musculus with 65 samples.

Results

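The genes described here encode calcium-activated potassium channels, and their transcripts were followed in single HSD2 neurons of the mouse brainstem. They were taken by name as a family, 5 genes in all (Kcnma1, Kcnmb4, Kcnn1, Kcnn2 and Kcnn3), out of 11875 uniquely named genes in the table, and all 5 were found there. The data come from 65 individual neurons of the NTS, the nucleus of the solitary tract, where signals from the viscera enter the brain. The mice were male and their strain is labelled as mixed. All of them carried Hsd11b2-Cre, a recombinase driven by the Hsd11b2 gene, and Ai9, a reporter that makes red tdTomato once Cre has removed its stop. Red cells were picked by hand after papain digestion, and each became a polyA library by Smart-Seq2, a full-length cDNA method for single cells. The groups are 33 neurons from mice on standard chow and 32 from mice on a low-sodium diet. The labels name no animal, age or duration of the diet. Each diet is therefore 1 sample, the differences between diets have no replicate check, and every SD below is the spread between cells. A reporter of this kind also stays on in cells that used the Hsd11b2 promoter only earlier in life, and the protocol text names Arc-ME as the digested tissue although every tissue label is the NTS.

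Potassium channels that open with intracellular calcium return a neuron to rest after a spike and set how soon the next one can follow. BK channels, large in conductance, need both calcium and depolarisation, sit close to voltage-gated calcium channels and shape the spike's falling phase. SK channels, small in conductance, do not sense voltage. They read calcium through calmodulin bound to each subunit, and carry a slower afterhyperpolarisation that spaces spikes. HSD2 neurons make the enzyme that inactivates glucocorticoids, which leaves their mineralocorticoid receptor free to respond to aldosterone, and they are known as neurons that become active when the body lacks sodium.

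The unit throughout is log2(CPM + 1), where CPM are reads per gene scaled per cell by the authors. Undoing the log2 showed that values fall on whole steps, and a step was taken as 1 read. Cells held 50078 to 5319462 such reads, with a median of 651333, so that 1 read stood for 0.16 to 16.1 CPM depending on the cell. A gene at 0 in a shallow cell may thus still be transcribed there. The CPM of a cell added up to between 754874 and 1147326 in 56 cells and to between 1393471 and 2170050 in the 9 others, all from the low-sodium group. Levels in those 9 high-sum cells depend on a scale that is not given in the sources used here, so results are also stated without them. The enzyme gene Hsd11b2 and the glutamate transporter gene Slc17a6 were found in all 65 cells, and all 65 cells passed a rule of at least 3 of 6 neuronal markers above 10 CPM. Exact (Clopper-Pearson) 95% intervals are given for shares of cells. They cover counting error only.

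Kcnma1, which encodes the pore of the BK channel, was the most widely found of the family. It was present in 57 of 65 cells (87.7%, interval 77.2 to 94.5%), at a mean of 5.19 ± 2.33 (SD, n = 65). The lowest cell was at 0, the median at 5.92 and the highest at 7.93, and among the cells with the gene the SD was 1.35. Most neurons thus sat in a band from 2.30 to 7.93 around a detected median of 6.07, and a small group was at 0. The 8 cells at 0 were chow neurons 7, 9, 45, 60 and 62 and low-sodium neurons 17, 35 and 45. They ranged in depth from 50078 to 1936918 reads. The deepest of them, low-sodium neuron 17, had a floor (3 reads) of 1.36 CPM, far under the median of 59.5 CPM over all cells. The shallowest, chow neuron 45, had a floor of 48.3 CPM, so a typical level could have been missed there. The gene spans 725061 bases on the minus strand of chromosome 14 (23289431 to 24014491, GRCm38) and has 31 annotated coding transcripts, which these gene-level values do not separate.

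Kcnmb4 encodes the beta4 subunit, the auxiliary subunit of BK channels that predominates in brain and slows their gating. It was found in 31 of 65 cells (47.7%, interval 35.1 to 60.5%), at a mean of 1.58 ± 2.05 with a median of 0. Detection rested on few reads, from 1 to 52 per cell, and 13 of the 31 cells had 3 reads or fewer. The highest 5 cells were all chow neurons (32, 45, 9, 29 and 27), at 59.9 to 102 CPM. The gene lies on the minus strand of chromosome 10 (116417861 to 116473878). Of its exon bases, 31.5% overlap the exons of the antisense genes Kcnmb4os1 and Kcnmb4os2, and because no strand setting of the counting is given, reads from these genes cannot be told apart from those of Kcnmb4.

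The SK genes Kcnn3 (SK3), Kcnn2 (SK2) and Kcnn1 (SK1) were found in fewer cells than Kcnma1. Their SDs over all cells were 1.98 to 2.92, a range that holds the 2.33 of Kcnma1. Among cells with the gene the SDs were 1.93 for Kcnn3, 2.13 for Kcnn2 and 1.93 for Kcnn1, against 1.35 for Kcnma1. Without the high-sum cells that of Kcnn3 was 1.53, against 1.33. Kcnn3 was found in 41 of 65 cells (63.1%, interval 50.2 to 74.7%) at a mean of 3.23 ± 2.92, with a median of 3.29 and a highest value of 10.26. Kcnn2 was found in 36 cells (55.4%, interval 42.5 to 67.7%) at 2.07 ± 2.45, with a median of 1.11 and a highest value of 7.42. Kcnn1 was found in 15 cells (23.1%, interval 13.5 to 35.2%) at 0.96 ± 1.98, with a median of 0. The intervals of Kcnn2 and Kcnn3 overlap widely, and those of both genes lie above that of Kcnn1. Each of these means was smaller than, or close to, its own SD. The genes lie on chromosome 3 (Kcnn3, plus strand, 89520164 to 89675132), chromosome 18 (Kcnn2, plus strand, 45268860 to 45686024) and chromosome 8 (Kcnn1, minus strand, 70842049 to 70863258). The annotated transcripts of any pair among the 5 genes shared no 40-base word, except Kcnmb4 and Kcnn1, which shared 13 of 3284 and 4729.

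A single cell dominated Kcnn1. Low-sodium neuron 18 held 1087 of the 1274 Kcnn1 reads in the data (85.3%), at 242 CPM, while the next cell, chow neuron 32, was at 74.9 CPM. Chow neuron 32 also had the highest Kcnmb4 value.

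**Figure D1:**
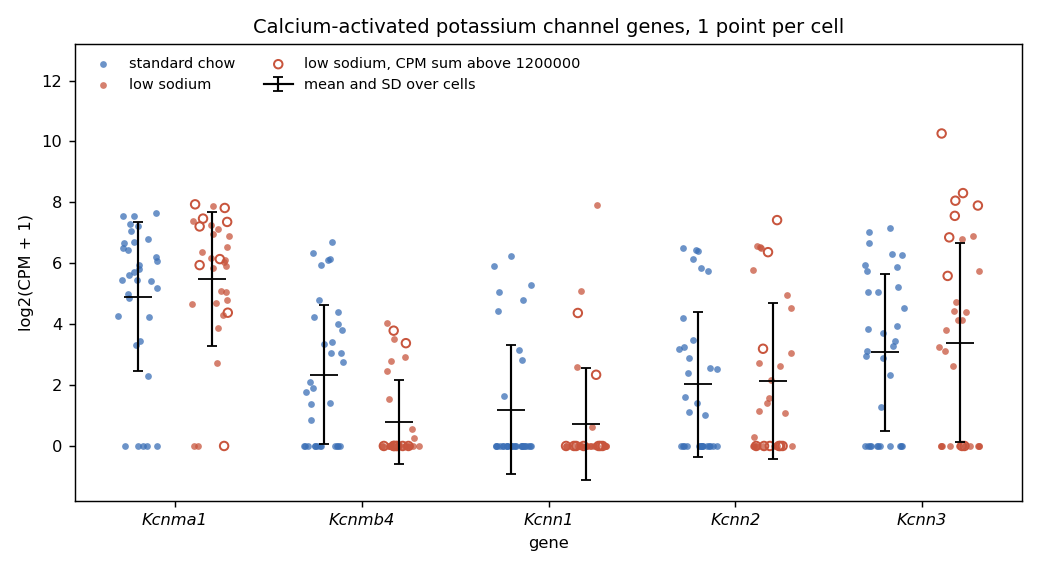
Level of each gene in every cell as log2(CPM + 1), with standard chow in blue (33 cells) and low sodium in red (32 cells); open circles are the 9 low-sodium cells with CPM sums above 1200000, and black bars are the mean and SD over cells. Kcnma1 forms a band with few cells at 0, Kcnmb4 reaches 6.69 in chow but only 4.04 in low sodium, and the highest 5 Kcnn3 points are open circles.

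Levels of different genes can be ordered only per length. Divided by the longest coding transcript, the median over 65 cells was 4.92 CPM per kilobase for Kcnma1, 3.05 for Kcnn3, 0.31 for Kcnn2, and 0 for both Kcnmb4 and Kcnn1. Divided by all merged exons, the medians were 3.51 for Kcnma1, 0.84 for Kcnn3 and 0.15 for Kcnn2, in the same order. The order of the leading genes was not firm within cells: Kcnma1 exceeded Kcnn3 in 29 of 65 cells by the transcript length and in 39 of 65 by merged exons. Kcnn3 and Kcnn2 were close by the same count, Kcnn3 being higher in 32 and Kcnn2 in 24 cells per transcript kilobase, and 29 and 27 per merged kilobase. Of the 58 cells with an SK gene, the highest per transcript kilobase was Kcnn3 in 31, Kcnn2 in 20 and Kcnn1 in 7. The order of the means per kilobase depended on the length used. By the longest transcript Kcnn3 was at 19.8 ± 56.04 CPM, above Kcnma1 at 6.15 ± 5.50, and without the high-sum cells Kcnn3 was at 8.16 ± 12.7 and Kcnma1 at 5.51 ± 4.94. The mean of Kcnmb4 by this length, unlike its median, was above that of Kcnma1, at 6.66 ± 15.2 and at 7.44 ± 16.1 without the high-sum cells. By merged exons Kcnn3 was at 5.46 ± 15.5 and Kcnma1 at 4.38 ± 3.92, and without the high-sum cells Kcnma1 was the higher, at 3.92 ± 3.52 against 2.25 ± 3.49. By the median coding transcript Kcnma1 led in all cells (21.3 against 19.8) and without the high-sum cells (19.04 against 8.16). The means of the SK genes without the high-sum cells were close by merged exons, at 2.25 for Kcnn3, 2.19 for Kcnn2 and 2.13 for Kcnn1. By the median coding transcript Kcnn2, at 9.50, was above Kcnn3. Each of these gaps is smaller than the larger SD between cells of the pair.

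Most neurons carried transcripts of both channel classes. At least 1 SK gene was found in 58 of 65 cells (89.2%, interval 79.1 to 95.6%), and Kcnma1 together with an SK gene in 52 (80.0%, interval 68.2 to 88.9%). The number of family genes found per cell was 0 in 2 cells, 1 in 4, 2 in 21, 3 in 21, 4 in 14 and all 5 in 3. The SK genes detected differed between cells. Kcnn2 without Kcnn3 was found in 15 cells, Kcnn3 without Kcnn2 in 20, both in 21 and neither in 9, and 7 cells held all 3 SK genes. Of the 36 cells with Kcnn2, 12 had 3 reads or fewer of it, and of the 41 with Kcnn3, 5 did. These counts were not set against those that independent detection of the genes would give. Kcnma1 was found in 35 of the 36 cells with Kcnn2 (97.2%, interval 85.5 to 99.9%) and in 22 of the 29 without it (75.9%, interval 56.5 to 89.7%). These intervals overlap. For Kcnn3 the order was the other way, with Kcnma1 in 35 of 41 cells (85.4%) and in 22 of 24 cells without Kcnn3 (91.7%), and these intervals overlap too. Kcnma1 and Kcnn2 were both found more often above the median depth than at or below it. The shares were 96.9% and 78.8% for Kcnma1, and 68.8% and 42.4% for Kcnn2. Kcnma1 was found in 27 of the 31 cells with the beta4 subunit gene Kcnmb4 (87.1%) and in 30 of the 34 without (88.2%). These shares cannot show whether the 2 genes go together. Kcnma1 was found in 57 of 65 cells, which leaves little room for a gap, and 13 of the 31 cells with Kcnmb4 had 3 reads or fewer of it.

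Across the 65 cells the levels of the 5 genes were weakly correlated at most, from r = -0.20 (Kcnmb4 with Kcnn2) to r = 0.26 (Kcnma1 with Kcnn2). Within the diets some were larger: Kcnmb4 with Kcnn2 was at -0.41 in chow and 0.07 in low sodium, and Kcnma1 with Kcnn2 at 0.35 and 0.16. These are descriptions over cells that share a diet, unnamed animals and the spread in depth. Depth itself had r = 0.25 with Kcnma1, -0.16 with Kcnmb4, -0.01 with Kcnn1, 0.14 with Kcnn2 and -0.23 with Kcnn3 (log2 reads, 65 cells).

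With every cell thinned to 50000 reads, which the shallowest cell already has, Kcnma1 was still found in 49 of 65 cells (75.4%) and Kcnn3 in 31 (47.7%). Kcnn2 was then found in 20 cells (30.8%), Kcnmb4 in 17 (26.2%) and Kcnn1 in 7 (10.8%). The order of the shares was the one seen with all reads. Thinning does not even out transcript length, and the shares were not corrected for it. The longest coding transcript has 12094 bases for Kcnma1, 4047 for Kcnn1, 3682 for Kcnn2, 2884 for Kcnn3 and 1367 for Kcnmb4.

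The comparison of diets asks how sodium lack changes the transcripts of these neurons. With all cells as deposited, Kcnmb4 had the largest difference of the 4 genes found in enough cells to be counted, being lower in low sodium, while Kcnma1, Kcnn2 and Kcnn3 had differences under 1 on the log2 scale. That order did not hold in every subset: in the deeper cells Kcnn3 (-1.33) and Kcnn2 (-0.58) differed by more than Kcnmb4 (-0.54), and Kcnn1 did (-1.28 against -1.23) once cells with non-neuronal markers were left out. Without the high-sum cells as well, Kcnn1 (-1.26) and Kcnn2 (1.04) exceeded Kcnmb4 (-0.94). A difference is the mean log2(CPM + 1) in low-sodium cells minus that in chow cells, and a size of at least 1 was used to count genes. Of the 10860 genes found in at least 16 cells, 3.90% were higher in low sodium by at least 1 and 6.68% were lower by at least 1. Without the 9 high-sum cells the shares were 2.97% and 6.44%. Counting any size, 42.3% were higher and 57.7% lower in all cells, and 43.2% and 56.8% without the 9. The median over those genes was -0.11, and -0.09 without the 9 cells. Of the 5 family genes 4 entered that count, Kcnn1 being found in too few cells, and 1 of the 4 (Kcnmb4, lower) passed the size of 1. By sign alone, 3 of the 4 were higher in all cells, and 2 without the 9.

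Kcnmb4 was found in 21 of 33 chow cells (63.6%, interval 45.1 to 79.6%) and in 10 of 32 low-sodium cells (31.3%, interval 16.1 to 50.0%). In chow the lowest value was 0, the median 1.91 and the highest 6.69, with a mean of 2.35 ± 2.30 (n = 33). In low sodium the lowest and the median were both 0 and the highest was 4.04, with a mean of 0.79 ± 1.39 (n = 32). The ranges overlap at the lower end, but 8 chow cells lay above the highest low-sodium cell. The difference was -1.56, with only 0.902% of the counted genes further down, and it was -1.56 without the 9 cells. Chow cells averaged 15.9 ± 27.3 CPM and low-sodium cells 2.12 ± 4.25 CPM, 7.50-fold higher in chow. The chow median was only 2.77 CPM, so a few high cells weigh on that mean. Of the 8 chow cells above the highest low-sodium cell, neurons 45, 9 and 39 had 5, 9 and 2 reads of Kcnmb4. Among cells with the gene alone, the mean was 3.69 ± 1.80 in 21 chow cells and 2.53 ± 1.33 in 10 low-sodium cells. Leaving out each cell in turn gave -1.66 to -1.42.

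The size of the Kcnmb4 difference depended on depth. In cells at or below the median of 651333 reads, Kcnmb4 was found in 12 of 19 chow cells (63.2%, interval 38.4 to 83.7%) and in 1 of 14 low-sodium cells (7.14%, interval 0.181 to 33.9%), a difference of -2.53. In the deeper cells it was found in 9 of 14 chow cells (64.3%, interval 35.1 to 87.2%) and in 9 of 18 low-sodium cells (50.0%, interval 26.02 to 74.0%), a difference of -0.54. The deeper cells thus showed the same direction at a size under 1 and with overlapping intervals. Without the high-sum cells, Kcnmb4 was found in 0 of 7 shallower low-sodium cells (interval 0 to 41.0%). Among the deeper low-sodium cells it was then found in 8 of 16 (50.0%, interval 24.7 to 75.3%). Both of these intervals overlap those of chow. The median difference over all counted genes was itself -0.26 in the deeper cells and -0.05 in the shallower cells. Kcnmb4 minus that median was -0.27 in the deeper cells and -2.48 in the shallower cells. Thinning all cells to 50000 reads left 13 of 33 chow cells (39.4%, interval 22.9 to 57.9%) and 4 of 32 low-sodium cells (12.5%, interval 3.51 to 29.0%), and a difference of -1.56. The split by depth was chosen after seeing the data.

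**Figure D2:**
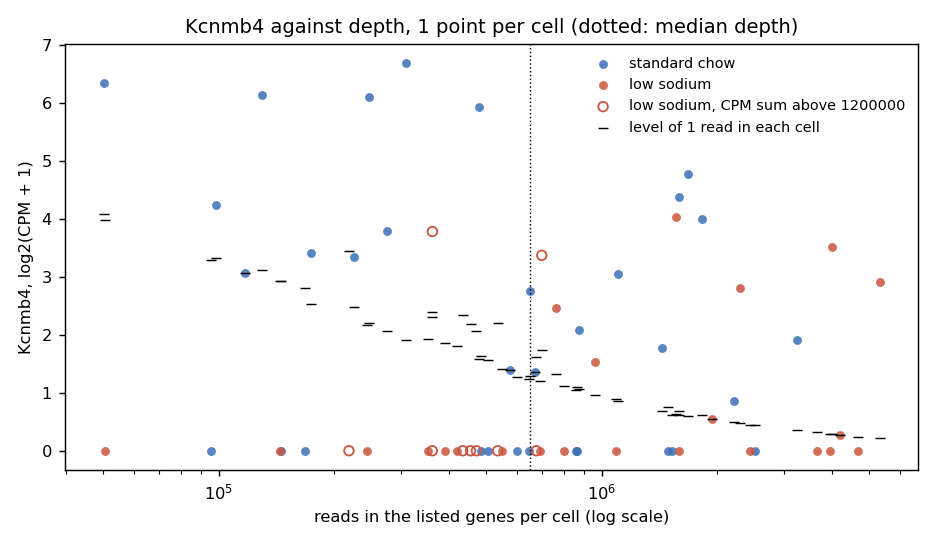
Kcnmb4 level (log2(CPM + 1)) against reads in the listed genes per cell on a log axis, with chow in blue, low sodium in red and high-sum low-sodium cells as open circles; dashes mark what 1 read is worth in each cell and the dotted line is the median depth. Left of the line 12 of 19 chow cells and 1 of 14 low-sodium cells lie above 0, and right of it 9 of 14 and 9 of 18.

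Some markers of astrocytes also differed between the diets. Of the 9 astrocyte markers, 7 were each found in at most 75% of cells. The summed level of all 9 ran from 131 to 4579 CPM in chow and from 205 to 2139 CPM in low sodium. That of the 7 ran from 0 to 2489 CPM in chow (median 30.7) and from 0 to 1045 CPM in low sodium (median 10.2), and at least 3 of them exceeded 10 CPM in 11 chow cells and 3 low-sodium cells. Slc1a3, a glial glutamate transporter gene, was at 0 in 16 chow cells and 26 low-sodium cells, and Aqp4, the astrocyte water channel gene, in 19 and 26. Other markers of the list did not share that order: Slc1a2, another glial glutamate transporter gene, was at 0 in 17 chow and 10 low-sodium cells, and Gfap, the astrocyte filament gene, in 25 and 23. Leaving out the 18 cells (12 chow and 6 low-sodium) that passed this rule for any non-neuronal list gave a Kcnmb4 difference of -1.17. A wider rule that counts every marker was passed by 21 of the 33 chow cells and by 4 of the 5 with the most Kcnmb4. It removed 40 cells and gave -1.23 in the 12 chow and 13 low-sodium cells left, and -0.94 when the high-sum cells were also left out. None of the 8 microglial markers is among the genes of the table.

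Kcnma1, the pore gene that beta4 attaches to, was found in 28 of 33 chow cells and 29 of 32 low-sodium cells. The chow median was 5.60 and the highest cell 7.65, with a mean of 4.90 ± 2.45. The low-sodium median was 6.07 and the highest cell 7.93, with a mean of 5.50 ± 2.20. The groups overlap over nearly the whole range, and the difference of 0.60 (0.39 without the 9 cells) is well under the SD between cells. It was 1.36 in the shallower and -0.41 in the deeper cells, so its direction turned with depth. Cells with the pore gene but not beta4 numbered 10 of 33 in chow (30.3%, interval 15.6 to 48.7%) and 20 of 32 in low sodium (62.5%, interval 43.7 to 78.9%), and cells with both numbered 18 and 9.

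Kcnn3 showed how far a few cells can carry a mean. It was found in 22 of 33 chow cells (66.7%) and 19 of 32 low-sodium cells (59.4%), with a mean of 3.08 ± 2.58 in chow and 3.39 ± 3.27 in low sodium. The median was 3.29 and 3.54 and the highest value 7.15 and 10.26. The difference was 0.31 with all cells and -0.73 without the 9 high-sum cells, so its direction turned. The highest 5 Kcnn3 values in the data, 1226 CPM in low-sodium neuron 51 down to 187 CPM in neuron 42, were all in high-sum cells. Of the 9 high-sum cells 7 had the gene, at a mean over the 9 of 6.06 ± 3.65, against 2.35 ± 2.496 in the other 23 low-sodium cells. Rescaling each cell to a CPM sum of 1000000 left the 9 cells at 5.52 ± 3.33, against 2.42 ± 2.57 in the other 23, so the gap was also present on that scale. Chow cells averaged 27.4 ± 38.8 CPM and low-sodium cells 87.7 ± 225 CPM. Without neuron 51 alone the low-sodium mean CPM was 51.0 and the log2 difference 0.09, and without all 9 cells the mean CPM was 18.1 ± 33.0. By depth the difference was 2.001 in the shallower and -1.33 in the deeper cells, and 7 of the 14 shallower low-sodium cells were high-sum cells.

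Kcnn2 had close levels and shares in both diets. It was found in 18 of 33 chow cells (54.5%) and 18 of 32 low-sodium cells (56.3%), with a mean of 2.02 ± 2.37 and 2.12 ± 2.56 and a median of 1.11 and 1.12. The difference of 0.10 (0.20 without the 9 cells) changed to -0.07 with a single cell left out, to 0.67 after thinning, and was 0.62 in the shallower and -0.58 in the deeper cells. Kcnn1 was found in 9 of 33 chow cells (27.3%, interval 13.3 to 45.5%) and 6 of 32 low-sodium cells (18.8%, interval 7.21 to 36.4%), at a mean of 1.19 ± 2.12 and 0.72 ± 1.83. Its difference was -0.48 on the log2 scale, while chow cells averaged 8.09 ± 18.2 CPM and low-sodium cells 9.51 ± 42.9 CPM. The opposite order of mean CPM came from neuron 18: without it the low-sodium mean CPM was 2.01 and the log2 difference -0.71.

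**Figure D3:**
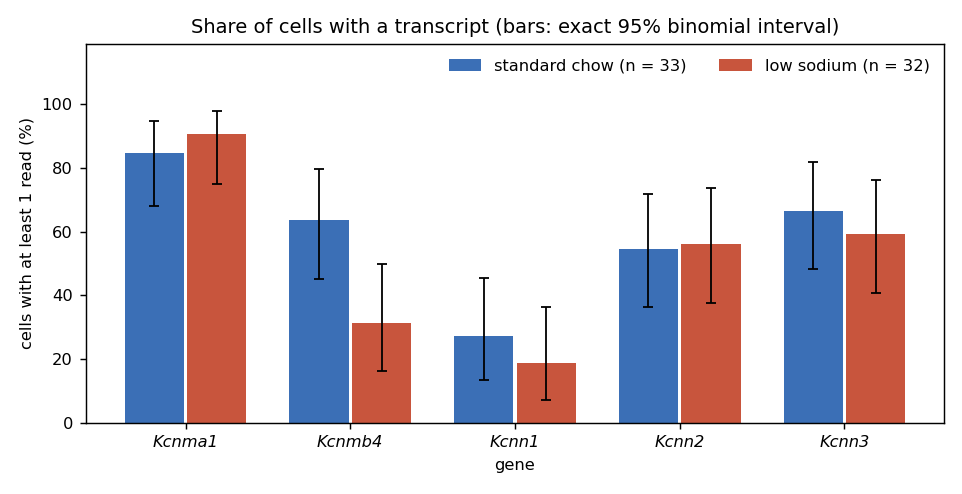
Share of cells (percent) with at least 1 read of each gene in chow (blue, n = 33) and low sodium (red, n = 32), with exact 95% binomial intervals over cells as black bars. Kcnmb4 shows the widest gap, 63.6% against 31.3%, and the intervals of the diets overlap for all 5 genes.

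**Figure D4:**
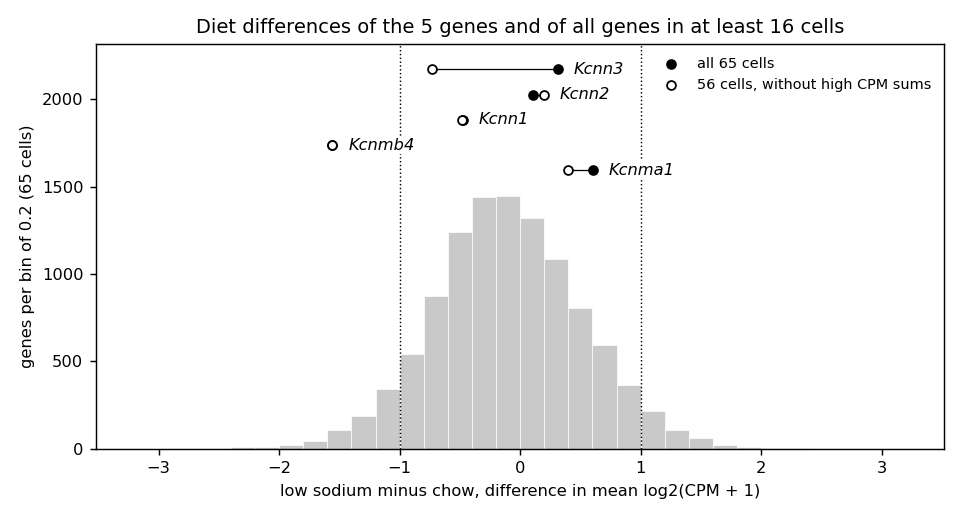
Diet differences (low sodium minus chow in mean log2(CPM + 1)) of the 5 genes, with all 65 cells as filled and 56 cells as open points, above a histogram of the differences of all 10860 counted genes in 65 cells; dotted lines mark -1 and 1. Kcnmb4 lies in the lower tail at -1.56 with either set of cells, and Kcnn3 moves from 0.31 to -0.73.

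Over 16 alternative ways of scaling, thinning, averaging or choosing cells, the Kcnmb4 difference stayed below 0 in all 16 and reached a size of 1 in 13, from -2.65 to -0.54. These differences are not set against the median over all counted genes, which also moved. That median was -0.30 after thinning, -0.26 in the deeper cells and 0.16 as a log2 ratio of mean CPM plus 1. The other 4 genes each took both signs over the same alternatives, and the widest range was that of Kcnn3, from -1.33 to 2.001.

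**Figure D5:**
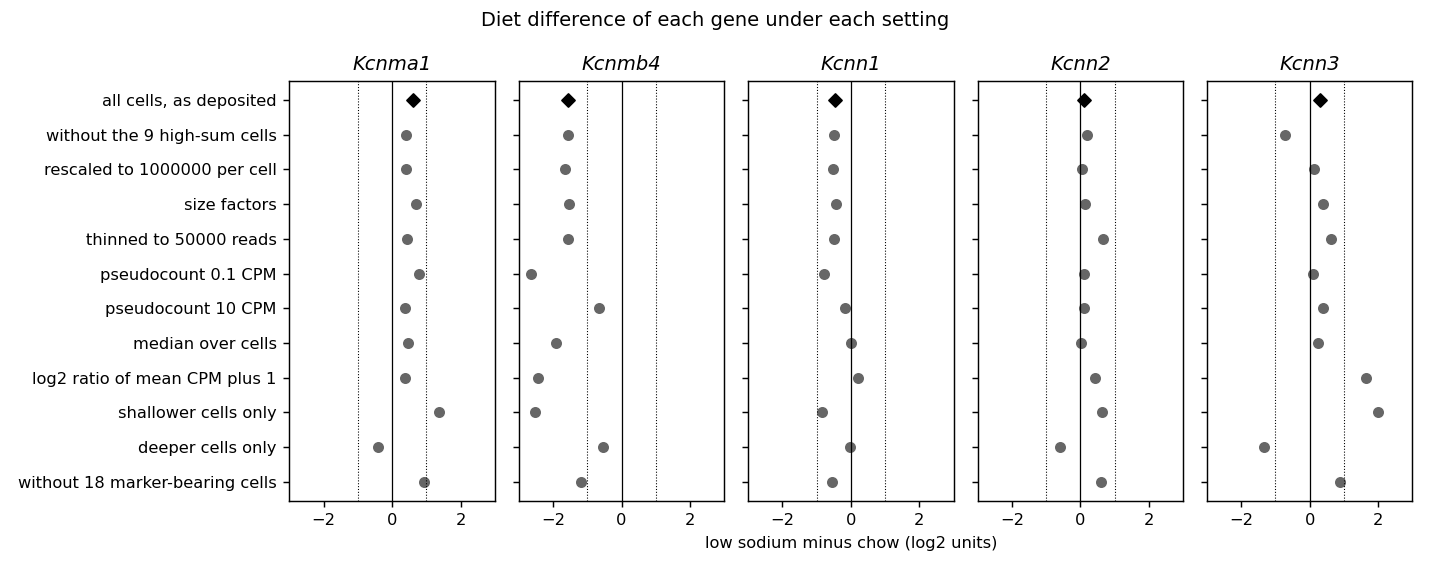
Diet difference of each gene (log2 units, low sodium minus chow) with all cells as deposited (diamond) and under other scalings, pseudocounts and choices of cells (circles); dotted lines mark -1 and 1. Kcnmb4 lies left of 0 under every setting drawn, and the shallower and deeper cells give opposite signs for Kcnma1, Kcnn2 and Kcnn3.

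Of 11 other BK auxiliary subunits, the intermediate-conductance channel and other Slo-type channels, 4 were in the table. Kcnt1, which encodes a sodium-activated potassium channel, was found in 46 cells at 3.81 ± 2.95, with a difference of 0.43 (-0.32 without the 9 cells). Lrrc55, which encodes a BK gamma subunit, was found in 29 cells at 2.02 ± 2.63, and its mean went from 1.61 ± 2.27 on chow to 2.44 ± 2.93 on low sodium, 0.83 higher (1.05 without the 9 cells). Kcnu1, the gene of a pH-sensitive relative of the BK channel known from sperm, was found in 16 cells at 0.91 ± 1.82. Kcnmb2, the gene of the inactivating beta2 subunit, was found in 14 cells. No gene of this list passed a size of 1 with all 65 cells, against 3.90% higher and 6.68% lower over all counted genes, and the median of the 3 counted was 0.43 (-0.32 without the 9 cells).

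The calcium sensor of SK channels was abundant everywhere. The calmodulin genes Calm2 (9.61 ± 0.78) and Calm3 (8.20 ± 0.58) were found in all 65 cells. On chow Calm2 averaged 9.80 ± 0.69 and on low sodium 9.41 ± 0.83, which differ by -0.39 (-0.52 without the 9 cells). With the kinase, phosphatase and Fmr1 genes known to act on these channels, 7 of 8 listed partner genes were in the table and counted. Of these 7 genes, few for such a comparison, 2 were higher and 5 lower, where 42.3% and 57.7% of all counted genes were. None (0) passed a size of 1, against 3.90% and 6.68%, and the median was -0.34 (-0.07 without the 9 cells).

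Some genes that bring calcium to the channels were higher in low sodium with all cells, and fewer were without the high-sum cells. Of 14 voltage-gated calcium channel and intracellular release channel genes, 12 were in the table and 10 were counted. By at least 1, 4 were higher and 0 lower, against 3.90% and 6.68% of all counted genes, with a median of 0.71. The 4 were Cacna1a, the P/Q-type channel (3.90 ± 2.54 in chow, 5.02 ± 2.58 in low sodium, difference 1.12), and Cacna1c, an L-type channel (3.49 ± 2.38 and 4.91 ± 2.66, difference 1.42). The others were Cacna1d, the other neuronal L-type channel (4.71 ± 2.24 and 5.79 ± 2.62, difference 1.09), and the ryanodine receptor gene Ryr2 (5.60 ± 1.58 and 6.95 ± 3.17, difference 1.36). Without the 9 high-sum cells the list had 1 gene higher and 2 lower by at least 1, against 2.97% and 6.44% of all counted genes, and a median of 0.20. By sign the list had 7 higher and 3 lower in all 65 cells, where 42.3% and 57.7% of all counted genes were. Without the 9 cells it had 6 higher and 4 lower, against 43.2% and 56.8%. Cacna1d was then at 1.14, Cacna1c at 0.86, Cacna1a at 0.55 and Ryr2 at 0.50. The genes lower by at least 1 in those 56 cells were the T-type channel gene Cacna1g (-1.14) and the ryanodine receptor gene Ryr3 (-1.19). The 3 highest means over 65 cells in this list were those of the N-type channel gene Cacna1b (6.48 ± 2.21), Ryr2 (6.26 ± 2.56) and the R-type channel gene Cacna1e (6.01 ± 2.73). Cacna1b differed by 0.53 (0.31 without the 9 cells) and Cacna1e by 0.37 (-0.82).

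Genes that buffer or remove calcium went both ways. All 11 were in the table and counted. With all 65 cells 7 were higher and 4 lower, where 42.3% and 57.7% of all counted genes were. Without the 9 cells the order turned, with 4 higher and 7 lower, against 43.2% and 56.8%. None of the 11 (0) passed a size of 1 with all 65 cells, against 3.90% higher and 6.68% lower over all counted genes. Pvalb came close to that size, at -0.9999 (-0.54 without the 9 cells). The median of the list was 0.06 (-0.14 without the 9 cells). The pump genes Atp2a2 (8.06 ± 1.05), Atp2b1 (7.92 ± 0.89) and Atp2b2 (7.89 ± 0.88) led in level and were found in all 65 cells, with differences of -0.25, 0.01 and 0.36. Of 4 other calcium-activated channel genes, 1 was in the table, the cation channel gene Trpm4. It was found in 13 chow and 8 low-sodium cells, at 1.99 ± 2.61 and 0.95 ± 1.78, a difference of -1.04 (-0.77 without the 9 cells).

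The genes whose levels were most like each member were ranked by Pearson's r over 65 cells among 10116 genes, as a description over cells that share libraries, diets and depth. For Kcnma1 they were Whsc1 (r = 0.66), Jmjd1c (0.60) and Sbf2 (0.59), and r was 0.65, 0.51 and 0.57 in the 56 cells. For Kcnmb4 they were Tfap2b (0.50), H2-T24 (0.46) and Homer2 (0.44), and Tfap2b still led in the 56 cells at 0.54. For Kcnn2 they were Lrrc9 (0.52), Serpinb9 (0.47) and Alg13 (0.46). In the 56 cells r was 0.45, 0.45 and 0.44, and these genes ranked 11, 8 and 15. For Kcnn3 they were Ctxn1, Phyhip and Dnah1 (all 0.48), and r was 0.35, 0.16 and 0.32 without the high-sum cells. Kcnn1 was found in too few cells to be ranked.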

How the data were processed

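Each sample is 1 neuron. The authors deposited a table of log2(CPM + 1) values, with genes in lines and cells in columns. Per the submitters' processing notes the tools were featureCounts 1.4.6, SAMtools 0.1.19, Picard 2.5.0, HISAT2 2.0.5 and bcl2fastq, on mm10 (GRCm38). Annotation, settings and scaling total were not given in the sources used here. Of 12015 lines, 140 with duplicated names or numbers for names were left out. CPM came from undoing the log2 and subtracting the pseudocount of 1. In every cell, 100% of CPM up to 20 steps were whole multiples of the smallest step within 0.1 steps, and a step was taken as 1 read. These are single cells without named animals, so no test was run between diets and no p-value is given. A pseudocount of 1 makes a log2 difference understate changes of low genes. Genes above 0 in at least 16 cells entered counts of differences of at least 1 (10860 genes). The floor is 3 reads. Non-neuronal cells were defined by at least 3 markers of 1 list above 10 CPM, first with all markers and then, after seeing the data, without markers found in over 75% of cells. The members and gene lists were chosen with earlier results of these data known. Named list genes were those with a difference of at least 1 or among the 3 highest means of their list, and not every gene that met this rule is reported here. Genes named in the 56-cell comparison (Cacna1g and Ryr3), in the family (Kcnmb2) and among genes that buffer or remove calcium (Pvalb) were chosen after their values were seen. The same holds for the cells singled out. Doublets were not called, since cells were picked by hand. Gene positions, lengths and overlaps came from GENCODE vM21 on GRCm38. Python 3.11.15, NumPy 2.4.6, pandas 2.3.3, SciPy 1.17.1 and matplotlib 3.10.9 were used, and the scripts were tested on simulated data.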

Additional observations from a re-analysis of the deposited data

How the results depend on the processing

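No paired analysis was possible because neuron numbers only name cells and no test between diets was run. The diet differences of the 5 genes moved by less than the pooled SD between cells under all 80 alternatives, which says little given that spread, and the signs turned for all genes but Kcnmb4. Leaving out each cell in turn gave 0.45 to 0.78 for Kcnma1, -1.66 to -1.42 for Kcnmb4, -0.71 to -0.32 for Kcnn1, -0.07 to 0.24 for Kcnn2 and 0.09 to 0.44 for Kcnn3. Kcnmb4 was at -0.65 with a pseudocount of 10 CPM and at -2.65 with 0.1 CPM, and under 1 in size also in the deeper cells (-0.54) and without both the marker-bearing and high-sum cells (-0.94). The number of genes higher in low sodium by at least 1, 424, was 928 with a pseudocount of 0.1 CPM, 87 with 10 CPM, 259 after rescaling, 1103 without non-neuronal cells and 1735 as a log2 ratio of mean CPM plus 1. The number lower by at least 1, 725, was 1749, 38, 1712 and 383 under these pseudocounts, without non-neuronal cells and as a ratio, and 1670 after thinning. Shares of cells after thinning to 50000 reads were 75.4% for Kcnma1, 26.2% for Kcnmb4, 10.8% for Kcnn1, 30.8% for Kcnn2 and 47.7% for Kcnn3, and at 10 CPM 20.0% for Kcnmb4, 24.6% for Kcnn2 and 47.7% for Kcnn3. For pairs of genes, the shares at 10 CPM and after thinning were 15.4% and 16.9% for Kcnma1 with Kcnmb4, 21.5% and 26.2% for Kcnma1 with Kcnn2, and 40% and 33.8% for Kcnma1 with Kcnn3. They were 4.62% under both for Kcnn1 with Kcnn2, 6.15% and 3.08% for Kcnn1 with Kcnn3, and 12.3% and 15.4% for Kcnn2 with Kcnn3. Depth, 50078 to 5319462 reads per cell, limits every share. The cause of these shifts was not tested.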
